A study of Rattus norvegicus with 16 samples.

Results

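This account follows genes that androgen and glucocorticoid receptors are both known to switch on or off, in rat levator ani satellite cells given a nonsteroidal androgen receptor agonist (NARA). The genes were taken from a list of 9 symbols: Fkbp5, Tsc22d3, Sgk1, Glul, Klf9, Per1, Tmprss2, Cited2 and Zbtb16. Every probe set of the array annotated with exactly 1 of these symbols was used, which gave 15 of 31042 probe sets and 8 of 14217 annotated genes. No probe set is annotated to Zbtb16 in the table used here. The rule used no measured value, although earlier results of these data were known when the list was made.

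The cells, at passage 5, are labelled as muscle satellite cells of the levator ani, a pelvic muscle whose mass depends on androgens. The groups were 10 nM NARA for 4 h, vehicle (0.2% DMSO) for 4 h, 10 nM NARA for 48 h and vehicle for 48 h, with 4 arrays each. All groups were kept in medium with charcoal-stripped serum, from which steroids have largely been removed, and NARA is known here only by that name. Whether the NARA cells also received DMSO is not stated. The authors left out 3 arrays, so the comparisons rest on 2 NARA and 4 vehicle arrays at 4 h and on 4 NARA and 3 vehicle arrays at 48 h. The titles call the arrays biological replicates and name no separate culture or animal for each, so the p-values below reflect the scatter among these arrays alone, part of which may be technical.

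The androgen receptor and the glucocorticoid receptor are closely related transcription factors that bind hormone in the cytoplasm, leave their Hsp90 chaperone complex and bind nearly the same DNA element in the nucleus. A set of genes therefore answers to either hormone. In muscle the receptors are known for opposite effects on mass, androgens building it and glucocorticoids wasting it.

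Across the 13 kept arrays, log2 values of all probe sets correlated pairwise at 0.930 to 0.956, a description since probe sets are no replicates, and median signals lay between 539 and 613. NARA 4 h replicates 1 and 4, both left out, correlated with the kept arrays at 0.645 to 0.673 and did not look like their label. A list of 9 liver genes summed to a signal of 1128270 and 1314080 in these arrays, against 3071 to 5119 in the kept arrays. Of 13 satellite cell and myoblast markers, 11 had a probe set, Pax7 and Myf5 not being annotated to any here, and 9 were above the minimum signal of 300 used for testing. Among these the adhesion molecule Cdh15 averaged a signal of 1275, the muscle transcription factor Myog 1117 and desmin (Des) 774, while Myod1 at 83.9 and Chrna1 at 201 were below it. Of the 9 liver genes, 6 also averaged above the minimum in the kept arrays, from 411 for Ahsg to 910 for Cyp2e1. So did 3 of 4 endothelial and 3 of 5 adipocyte markers. Passing the minimum therefore does not by itself mark a cell type. The summed signal of the 11 satellite cell and myoblast markers was 12192 to 14700.5 in NARA 48 h and 19087 to 22922 in vehicle 48 h. Sdc4 and Cxcr4, with means of 8548 and 2848, make up most of that sum, and the median over the 11 markers was 771 in NARA 48 h and 880.3 in vehicle 48 h. All 5 smooth muscle markers were above the minimum, and they summed to 8991 to 12638 in NARA 48 h and 13683 to 15613 in vehicle 48 h. The sums of 10 fibroblast markers overlapped, at 469123 to 577235 in NARA 48 h and 452520 to 552892 in vehicle 48 h. Col1a2, Col3a1, Fn1 and Col1a1 make up most of that sum. The median over the 10 markers was 26206 in NARA 48 h and 40542 in vehicle 48 h. Of 5 macrophage markers, Cd68 and Csf1r were above the minimum with means of 588 and 623, Ptprc, Adgre1 and Cd163 were below it at 81.4, 133 and 84.3, and the sums overlapped at 1125 to 2186 in NARA 48 h and 1108 to 2093 in vehicle 48 h. The part of these shifts in the results below was not tested.

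The promoter sequences of the listed genes were searched for the shared receptor element. RefSeq windows running from 250 bases before to 50 bases after an annotated start (rat build GRCr8) were found for all 8 genes, 13 windows in all. Both strands were read, and N stands for any base. The full palindrome, AGAACA and TGTTCT spaced by 3 bases, occurred in 0.0149% of all 33469 windows, a looser form, GNACA and TGTNC with the same spacing, in 0.439%, and the hexamer AGAACA alone, which the full palindrome contains, in 20.7%. The 13 windows held 0 of each. A form with an open end, GNACA and TGT spaced by 3 bases, which the other spaced forms contain, was chosen after the sequences had been seen. It was present in 3.16% of all windows and in 2 of the 13. It matched in 1 of 2 Glul windows at bases -65 to -55 and in 1 of 3 Tsc22d3 windows at bases -185 to -175, counted from the annotated start. Both stretches are shown with the match in capitals, beside the 120 bases before the start of Fkbp5, the listed gene with the greatest rise, where no match was found. The Glul stretch is chr13:68519380-68519499 on the plus strand, the Tsc22d3 stretch is chrX:109065596-109065624 on the minus strand and the Fkbp5 stretch is chr20:6543556-6543675 on the minus strand. A match is a description of the letters only.
Glul: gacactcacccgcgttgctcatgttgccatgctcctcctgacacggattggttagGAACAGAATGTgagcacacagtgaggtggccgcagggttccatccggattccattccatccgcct
Tsc22d3: ccgctcaggGGACACCCTGTgagccagcc
Fkbp5: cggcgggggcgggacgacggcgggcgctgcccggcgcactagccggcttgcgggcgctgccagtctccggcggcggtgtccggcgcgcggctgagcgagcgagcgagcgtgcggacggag

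The comparison at 48 h asked which of the shared targets the agonist had changed after prolonged exposure. Fkbp5, Tsc22d3, Sgk1 and Glul rose in NARA, Cited2 fell, and Klf9 and Tmprss2 did not pass the test. Values are MAS5 signals, the array maker's summary of a probe set on a linear scale, and folds are on the scale of log2(signal + 50), which understates changes of dim probe sets. A call is an adjusted p under 0.05 from limma, with Benjamini-Hochberg adjustment over all 20904 probe sets whose mean signal was at least 300. Of the 15 listed probe sets 12 reached that minimum, and 9 of these 12 passed, 7 higher and 2 lower, where 2.8% of all probe sets passed (1.36% higher and 1.44% lower). Among the 7, Fkbp5 1380611_at reached the minimum only through its NARA arrays. It is included in every count and median over the 12 given below, so these are not independent of its rise. These arrays measure bulk RNA, in which fewer cells of a type and less RNA per cell cannot be told apart.

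Fkbp5 encodes an Hsp90 co-chaperone that binds steroid receptor complexes and forms a feedback loop with them. Its brighter probe set, 1388901_at, had signals of 3155, 2557, 2537 and 2856 in NARA 48 h, against 841, 712 and 722 in vehicle 48 h. Every NARA array lay far above the brightest vehicle array. The means were 2776 ± 292 in NARA (SD, n = 4) and 758 ± 71.7 in vehicle (SD, n = 3), a log2 change of 1.80 (SE 0.276, limma adjusted p = 0.00475). The dimmer probe set, 1380611_at, had 1656, 1551, 1617 and 1297 in NARA 48 h, against 202, 333 and 347 in vehicle 48 h, and rose by 2.22 (SE 0.307, limma adjusted p = 0.00232). Its mean was 294 in vehicle 48 h and 257 in vehicle 4 h, so it reached the minimum of 300 only through the NARA arrays, while the brighter probe set exceeded it in every kept array.

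Tsc22d3 encodes the leucine zipper protein GILZ, a mediator of glucocorticoid action known for its anti-inflammatory effect. The gene had 4019, 4216, 4976 and 4478 in NARA 48 h, against 2311, 2024 and 2137 in vehicle 48 h. The groups were far apart, and the gene rose 2.02-fold, by 1.02 log2 units (SE 0.121, limma adjusted p = 0.000832). Sgk1, a serine/threonine kinase known for its control of ion transport, had 21342, 20956, 22651 and 23666 in NARA 48 h, against 12436, 12217 and 13223 in vehicle 48 h. It rose 1.75-fold, by 0.81 log2 units (SE 0.0942, limma adjusted p = 0.000749).

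Glul encodes glutamine synthetase, which joins ammonia to glutamate and is a classical glucocorticoid-induced enzyme of muscle. Its brightest probe set, 1386870_at, had 9796, 9409.7, 9523 and 9743 in NARA 48 h, against 5517, 5812 and 4328 in vehicle 48 h. The NARA arrays lay within a narrow band, and the mean was 9618 ± 182 in NARA (SD, n = 4) and 5219 ± 786 in vehicle (SD, n = 3). All 3 probe sets of the gene rose, by 0.89 (SE 0.106), 1.07 (SE 0.129) and 0.74 log2 units (SE 0.135), with limma adjusted p of 0.000832, 0.000872 and 0.0127. The call of 1367633_at was lost without vehicle 48 h replicate 2 (adjusted p = 0.0577 in limma) and when the 48 h groups were fitted alone (adjusted p = 0.102).

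Cited2 was the listed gene that fell. It encodes a coregulator that competes with hypoxia-inducible factor for the coactivators CBP and p300. Probe set 1367602_at had 6607, 5830.5, 6830.1 and 6083 in NARA 48 h, against 10184, 9805 and 9656 in vehicle 48 h. No array of either group came near the other, and the gene was 1.56-fold lower (log2 change -0.64, SE 0.0880, limma adjusted p = 0.00229). Probe set 1367601_at had 4762, 4897, 5214 and 4759 in NARA 48 h, against 11008, 7796 and 7053 in vehicle 48 h, a log2 change of -0.78 (SE 0.146, limma adjusted p = 0.0147). Its vehicle arrays were more widely spread, with an SD of 2102, than its NARA arrays, with an SD of 214. Both Cited2 calls were lost when the 48 h groups were fitted alone, with limma adjusted p of 0.0569 for 1367602_at and 0.103 for 1367601_at.

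**Figure D1:**
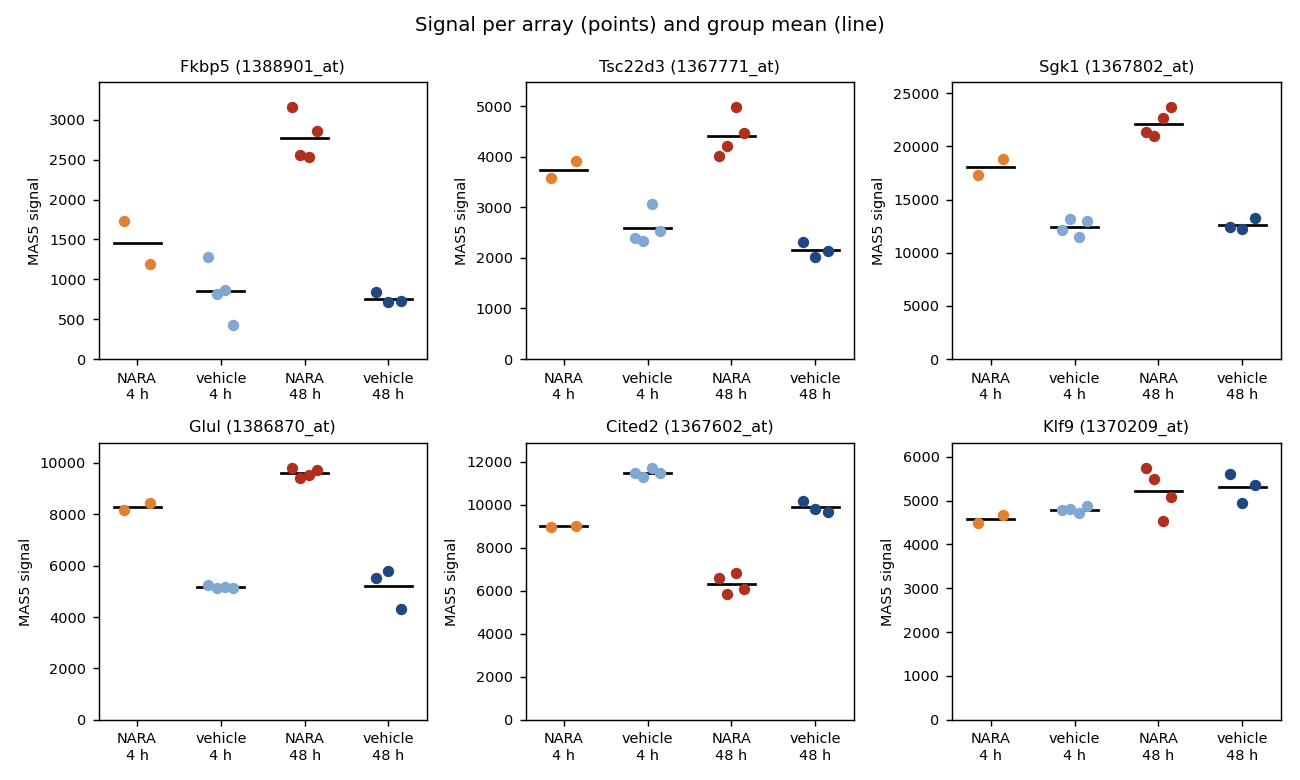
MAS5 signal (linear axis from 0) of a bright probe set of 6 genes in each of the 13 kept arrays, with points for arrays and a line for the group mean, for NARA 4 h, vehicle 4 h, NARA 48 h and vehicle 48 h. Fkbp5, Tsc22d3, Sgk1 and Glul are highest in the 4 NARA 48 h arrays, Cited2 is lowest there, and the Klf9 arrays of both treatments overlap at 48 h.

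Klf9, a zinc finger transcription factor that glucocorticoids induce in many tissues, was not detectably changed. Its brightest probe set, 1370209_at, had 5736, 5494, 4524 and 5071 in NARA 48 h, against 5616, 4942 and 5355 in vehicle 48 h, and the groups overlapped throughout. The log2 change was -0.03 with a 95% interval from -0.25 to 0.19. A dimmer probe set, 1390076_at, had a log2 change of 0.28 (95% interval -0.25 to 0.82). The dimmest, 1387882_at, averaged a signal of 129 over the 13 arrays and was not tested.

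Per1, a component of the circadian clock with a known receptor element near its promoter, could not be judged at this signal. Its probe set averaged 207 over the 13 arrays and fell below the minimum. It had 142, 157, 157 and 131 in NARA 48 h, against 119.7, 180.0 and 159.8 in vehicle 48 h. Without a minimum its log2 change was -0.04 (adjusted p = 0.989 in limma). Tmprss2, a membrane serine protease and a classical androgen target of the prostate, was also dim. Probe set 1387833_at had 822, 558, 530.2 and 660.4 in NARA 48 h, against 388, 462 and 348 in vehicle 48 h. These arrays did not overlap, but the log2 change of 0.61 did not pass (95% interval -0.31 to 1.54, limma adjusted p = 0.533). The other Tmprss2 probe set averaged 90.3 and was not tested.

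The arrays of NARA and vehicle did not overlap at 48 h for 10 of the 12 tested probe sets, against 14.7% of all probe sets tested. The median log2 change of the 12 was 0.78, and that of all probe sets tested was below 0.01 in size. Leaving out each of the 13 arrays in turn gave 8 or 9 calls among the 12. With vehicle 48 h replicate 1 put back, the only 48 h array left out, the count was 9. With all 16 arrays in the fit, which also adds NARA 4 h replicates 1 and 4, it was 3. These were both Fkbp5 probe sets and the brightest of Glul.

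The comparison at 4 h asked which of these genes already differed early, with 2 NARA and 4 vehicle arrays. No listed probe set passed, and 0 of all 20904 did (0% called), while 4.75% of all probe sets had an unadjusted p under 0.05. Among the 12 listed probe sets that number was 9. The strongest separation was that of Glul, whose probe set 1367632_at had 5167 and 5629 in NARA 4 h, against 2262, 2329, 2576 and 3178 in vehicle 4 h. The log2 difference was 1.06 (SE 0.146, limma adjusted p = 0.0704), the 4th smallest p of all probe sets tested. The brightest Glul probe set had 8165 and 8445 in NARA 4 h, against 5246, 5147, 5175 and 5143 in vehicle 4 h, a difference of 0.68 (SE 0.120, limma adjusted p = 0.248). In both probe sets the NARA arrays lay clear of every vehicle array.

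The other genes that were called at 48 h differed in the same direction at 4 h without passing. Sgk1 had 17355 and 18808 in NARA 4 h, against 12116, 13172, 11452 and 12976 in vehicle 4 h, with a log2 difference of 0.54 (SE 0.107, limma adjusted p = 0.286). Tsc22d3 had 3582 and 3916 in NARA 4 h, against 2391, 2334, 3075 and 2530.1 in vehicle 4 h, a difference of 0.54 (SE 0.137). The groups did not overlap for either gene. Fkbp5 was less even. Its brighter probe set had 1728 and 1189 in NARA 4 h, against 1280.3, 817, 870.1 and 424 in vehicle 4 h, a difference of 0.82 (SE 0.313, limma adjusted p = 0.967). One NARA array fell inside the vehicle range for each Fkbp5 probe set. Cited2 differed by -0.35 (SE 0.0998) and -0.17 (SE 0.165) at its probe sets, and its NARA arrays lay below all vehicle arrays in both.

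Tmprss2 had the greatest early difference in size. Probe set 1387833_at had 766 and 767 in NARA 4 h, against 68.5, 151, 440.3 and 448 in vehicle 4 h. The vehicle arrays split widely, from 68.5 to 448, and the log2 difference of 1.56 had a 95% interval from 0.51 to 2.62 (limma adjusted p = 0.774). Its vehicle 4 h mean of 277 lay below the minimum of 300. The brightest Klf9 probe set had 4493 and 4659.6 in NARA 4 h, against 4782, 4802, 4714 and 4871 in vehicle 4 h, a log2 difference of -0.07 (95% interval -0.32 to 0.19).

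At 4 h the arrays did not overlap for 9 of the 12 listed probe sets, against 14.3% of all probe sets tested. The 9 include the brightest Klf9 probe set, whose log2 difference was only -0.07. The median log2 difference of the 12 was 0.55, and that of all probe sets tested was 0.01. The comparisons at 4 h and 48 h share no array, and 11 of the 12 had the same sign at both times, against 52.8% of all probe sets tested. The exception was the dim Klf9 probe set 1390076_at. The 12 probe sets come from 7 genes, so their signs are not independent of each other. Klf9 1370209_at counts as the same sign at -0.07 and -0.03, although both 95% intervals include 0. With all 16 arrays, which adds the NARA 4 h replicates 1 and 4, the Sgk1 difference at 4 h was -0.95 and that of the brightest Klf9 probe set was 1.12.

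**Figure D2:**
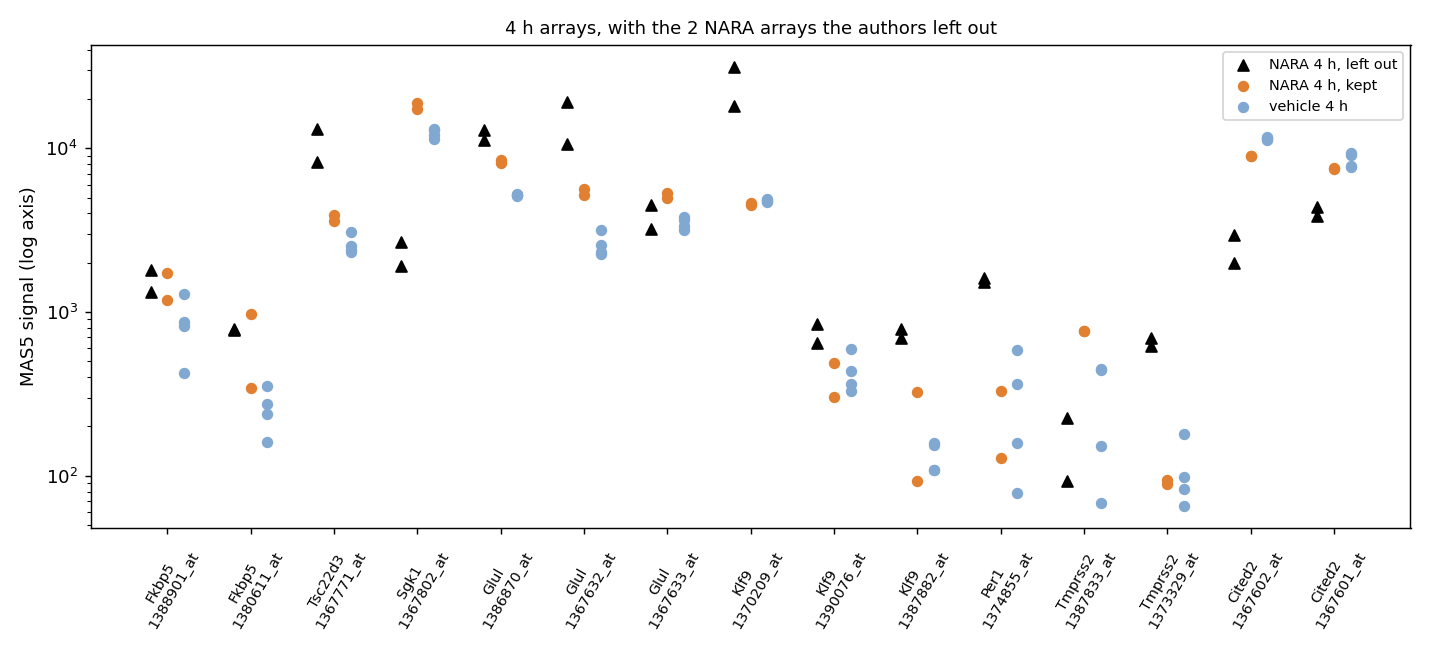
MAS5 signal (log axis) of all 15 listed probe sets at 4 h, with triangles for the NARA arrays that the authors left out (replicates 1 and 4) and points for the kept NARA and the vehicle arrays. Both triangles lie above every vehicle array for Klf9 1370209_at, at 31515 and 18236 against 4714 to 4871 in vehicle 4 h, and below every vehicle array for Sgk1 and for both Cited2 probe sets.

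**Figure D3:**
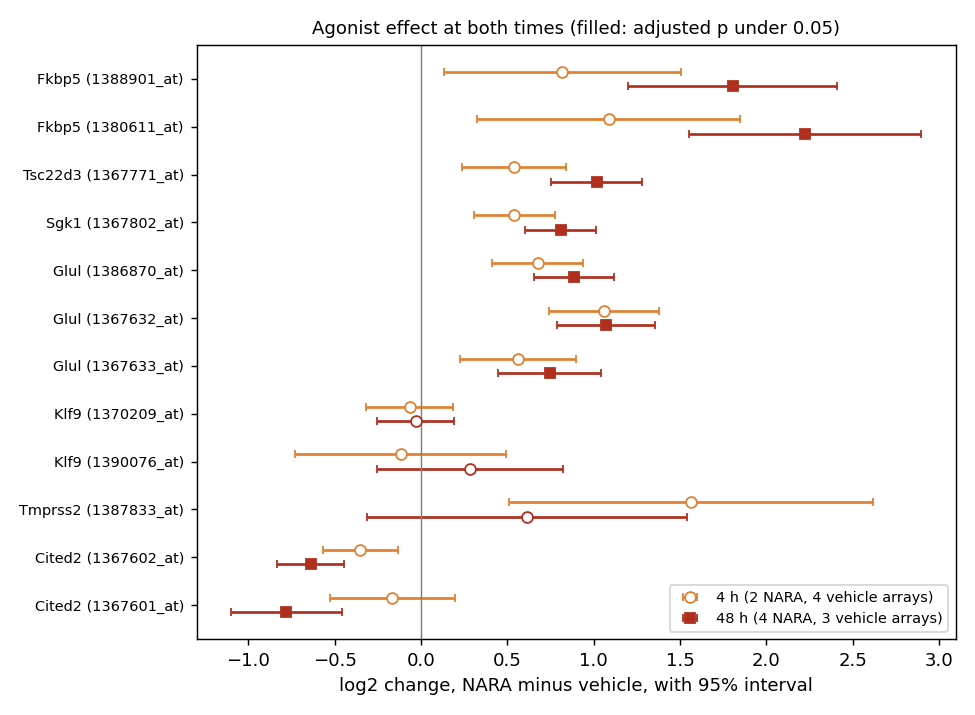
Log2 change in NARA minus vehicle with its 95% interval for the 12 tested probe sets, at 4 h (upper mark of each pair, 2 NARA and 4 vehicle arrays) and 48 h (lower mark, 4 NARA and 3 vehicle arrays); filled marks passed the adjusted threshold. The 9 filled marks are all at 48 h, and each lies on the same side of 0 as its 4 h mark.

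Whether the agonist's effect differed with time was tested as an interaction, and no listed probe set passed, against 0.124% of all probe sets tested. At an unadjusted p under 0.05 in limma there were 4 of the 12, against 9% of all. The share of the 48 h change present at 4 h is given without an interval, and it also differed between probe sets of the same gene. For Fkbp5 the 4 h log2 difference was 45.3% and 48.8% of the 48 h change at its probe sets, for Tsc22d3 52.8%, for Sgk1 66.8%, and for the Glul probe sets 76.3%, 98.8% and 75.4%. For Cited2 it was 55.0% and 21.3%. The effect at 48 h exceeded that at 4 h by 0.99 at the brighter Fkbp5 probe set (95% interval 0.07 to 1.90, limma adjusted p = 0.524). It exceeded it by 0.01 at Glul 1367632_at (95% interval -0.41 to 0.44). For Tmprss2 the 48 h effect was smaller by 0.95, with a 95% interval from -2.35 to 0.45. Neither the order of the genes nor a difference between their shares was tested.

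The level over the 4 conditions followed a common order in the genes that rose. Fkbp5 1388901_at averaged 1458 ± 381 in NARA 4 h (n = 2), 848 ± 350.3 in vehicle 4 h (n = 4), 2776 ± 292 in NARA 48 h (n = 4) and 758 ± 71.7 in vehicle 48 h (n = 3), as mean ± SD. Sgk1 averaged 18081 ± 1028 in NARA 4 h, 12429 ± 797 in vehicle 4 h, 22154 ± 1242 in NARA 48 h and 12625 ± 529 in vehicle 48 h. In Fkbp5, Tsc22d3, Sgk1 and Glul probe sets 1386870_at and 1367632_at, NARA 48 h was highest and NARA 4 h next, and the order of the vehicle groups varied. Glul 1367633_at had its highest mean in NARA 4 h, at 5170.2 ± 238. For Cited2 1367602_at the means were 8992 ± 31.0 in NARA 4 h, 11488 ± 169 in vehicle 4 h, 6338 ± 461 in NARA 48 h and 9882 ± 272 in vehicle 48 h, so NARA 48 h was lowest and vehicle 4 h highest.

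Neighbours in these orders mostly could not be separated. Between 48 h and 4 h in vehicle, no listed probe set passed and 0 of all 20904 did (0% called, with 7.35% at an unadjusted p under 0.05 in limma, and 1 of the 12). Between 48 h and 4 h in NARA, 1 of the 12 passed, Cited2 1367602_at at -0.50 (SE 0.0998, limma adjusted p = 0.0465), where 0.785% of all probe sets passed and 0.297% passed as lower. That call was lost when any 1 array outside NARA 4 h was left out (adjusted p from 0.0586 to 0.12 in limma). Leaving out either NARA 4 h array leaves 1 array in that group, and the log2 change was then -0.51 or -0.50. Fkbp5 differed by 0.92 and 1.31 between these NARA groups (limma adjusted p of 0.257 and 0.138). This comparison shares the NARA arrays with those against vehicle.

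**Figure D4:**
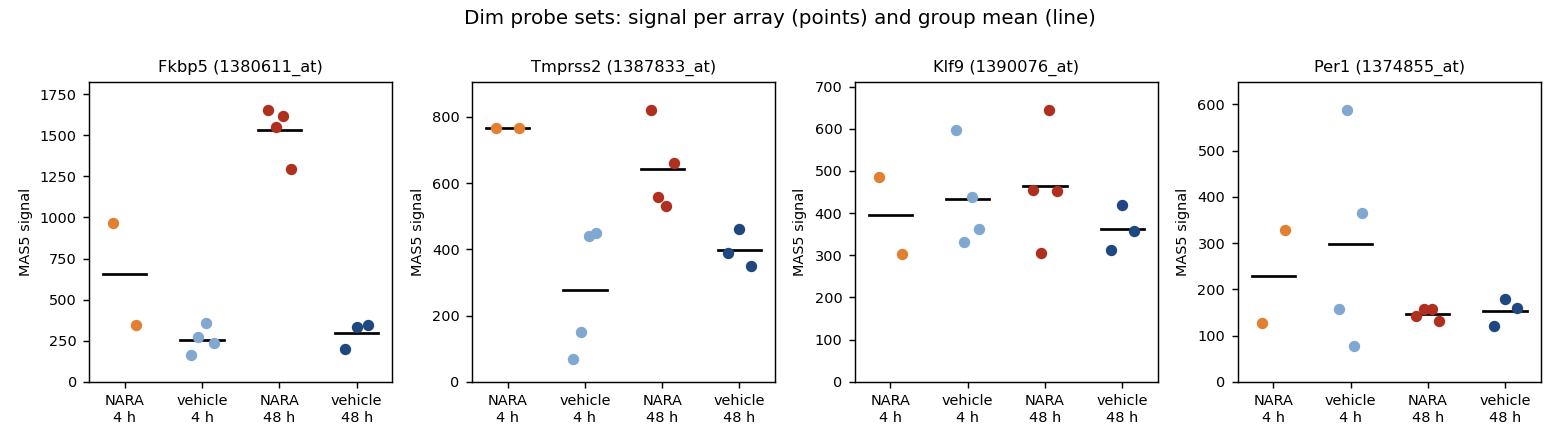
MAS5 signal (linear axis from 0) of dim probe sets of Fkbp5, Tmprss2, Klf9 and Per1 in each of the 13 kept arrays, with points for arrays and a line for the group mean. Fkbp5 1380611_at lies at 1297 to 1656 in NARA 48 h and at 202 to 347 in vehicle 48 h, Tmprss2 spreads from 68.5 to 448 in vehicle 4 h, and Klf9 and Per1 overlap between treatments at both times.

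The genes that passed were closely correlated over the 13 arrays, and less so once each group's mean was subtracted. The log2 values of the brightest probe sets correlated at 0.842 (Fkbp5 and Tsc22d3) to 0.946 (Sgk1 and Glul) among the genes that rose, and at -0.926 (Sgk1) to -0.80 (Tsc22d3) with Cited2. After the group means were subtracted, the 10 pairs ranged from -0.43 for Fkbp5 and Sgk1 to 0.41 for Tsc22d3 and Cited2. Between probe sets of 1 gene, the values were 0.871 over the arrays and 0.03 within groups for Fkbp5, 0.897 and 0.35 for Cited2, and 0.820 to 0.952 and 0.01 to 0.31 for the Glul pairs. The tested Klf9 probe sets ran against each other, at -0.43 and -0.63. These values describe the 13 arrays, which share their group structure, and carry no test.

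Among all 11286 genes tested, those whose arrays ran most like Fkbp5 were Slc12a2, the sodium-potassium-chloride cotransporter (r = 0.943), Rgs2, a regulator of G protein signalling (r = 0.939), and Tpd52l1 (r = 0.936). Rgs2 also led for Sgk1 (r = 0.956), followed by the choline transporter-like gene Slc44a1 (r = 0.955) and Svil, an actin-binding protein (r = 0.950). Sgk1 itself led for Glul, followed by Gpcpd1 (r = 0.945) and Tent5a (r = 0.938). For Tsc22d3 they were Jade1 (r = 0.942), Pakap (r = 0.923) and Dhrs3 (r = 0.920), and for Cited2 Tspan7 (r = 0.959), Pdlim1 (r = 0.954) and Sema3c (r = 0.943). Each r is over 13 arrays and is a description.

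Other genes known to answer to either receptor were counted from lists that were also made with earlier results known, taking the brightest probe set of each gene. Of 27 tested glucocorticoid-responsive genes, 7 rose and 1 fell at 48 h, where 3.21% of 11286 genes passed. The median log2 change of the list was 0.09, and that of all genes was -0.01. Rgs2 averaged 3054 ± 228 in NARA 48 h and 987 ± 177 in vehicle 48 h, a rise of 1.59 log2 units. Crispld2, a secreted protein, averaged 1537 ± 205 in NARA 48 h and 184 ± 156 in vehicle 48 h. It averaged 59.4 in NARA 4 h and 67.3 in vehicle 4 h, so it reached the minimum of 300 only through the NARA 48 h arrays. The muscle ubiquitin ligase Trim63, known from glucocorticoid-induced muscle wasting, rose by 1.42, the transcriptional repressor Bcl6 by 0.96 and Ddit4, an inhibitor of mTORC1, by 0.86. Cdkn1c, the gene that fell, had a log2 change of -0.95 (SE 0.226, limma adjusted p = 0.0488). Of the other classical members, Dusp1 had a log2 change of 0.07, Per2 of 0.13, Nfkbia of 0.09, Foxo1 of -1.30 and Foxo3 of -0.43. None of these was past the threshold in limma. Over the list, 16 of the 27 log2 changes were positive.

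Of 23 tested androgen-responsive genes, most of them known from prostate, 1 rose and 1 fell at 48 h (3.21% of all genes passed), with a median of 0.02. Igf1, a growth factor of muscle, rose by 1.60 log2 units and Sms, the spermine synthase gene, fell by 0.97 (SE 0.104). The difference between the shares of these lists was not tested. The rise of Igf1 was greater at 48 h than at 4 h by 1.27 (limma adjusted p = 0.0226), where 0.151% of the 11286 genes passed. At 4 h neither list had a gene past the threshold, and the medians were 0.09 for the glucocorticoid-responsive and -0.09 for the androgen-responsive genes.

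Of 12 tested receptors, steroid-converting enzymes and Hsp90 co-chaperones, 1 rose and 1 fell at 48 h, where 3.21% of all genes passed. Hsd11b2, the enzyme that inactivates cortisol and corticosterone, averaged 4009.8 ± 629.7 in NARA 48 h and 1154 ± 299.7 in vehicle 48 h, a rise of 1.77 log2 units (SE 0.207, limma adjusted p = 0.000752). Nr3c1, the glucocorticoid receptor, averaged 5141 ± 252 in NARA 48 h and 7503 ± 514 in vehicle 48 h, a log2 change of -0.54 (SE 0.0936, limma adjusted p = 0.00958). Fkbp4, the co-chaperone most like Fkbp5, had a log2 change of 0.03 (SE 0.183, limma adjusted p = 0.957).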

How the data were processed

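RNA of 16 samples was measured on Affymetrix rat arrays, 1 array per sample. The deposited values are linear MAS5 signal intensity, the method being credited to the submitters' processing notes. The authors scaled each array to a trimmed mean of 1500, as the design text of the series states (found here between 1500.45 and 1500.56). The 3 arrays that the authors left out were left out here. Affymetrix controls (57 probe sets) were set aside. Gene symbols came from the platform annotation, and all 15 listed probe sets matched RefSeq by gene identifier.

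Signals were transformed as log2(signal + 50). Probe sets with a mean of at least 300 over the 13 arrays were fitted by group means with limma 3.58.1 (lmFit, eBayes) in R 4.3.3, with 9 residual and 2.40 prior degrees of freedom and 5 contrasts. P-values are two-sided. The number of arrays limits the precision. The fit was tested on simulated data. Alternatives are given at the end.

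The members and all gene lists were chosen with earlier results of these data known. Every listed probe set is described. From the other lists, up to 5 genes by smallest p among those that passed at 48 h were named. Cdkn1c, Dusp1, Per2, Nfkbia, Foxo1, Foxo3 and Fkbp4 were named after their values were seen. The 3 genes most like each called gene were taken by Pearson's r.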

Additional observations from a re-analysis of the deposited data

Results flagged for a closer look

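NARA 4 h replicates 1 and 4 entered no comparison. Some listed probe sets were marked because their signals in both were more than 2 times the highest vehicle 4 h array. The share of all probe sets that did so was not counted, so this is no result particular to the listed genes. Replicates 1 and 4 are the arrays in which 9 liver genes summed to 1128270 and 1314080. Klf9 1370209_at had 31515 and 18236 in replicates 1 and 4, against 4714 to 4871 in vehicle 4 h. Klf9 1387882_at, too dim to be tested in the kept arrays, had 783 and 699. Per1, also too dim there, had 1522 and 1607, against 78.2 to 589 in vehicle 4 h. Tsc22d3 had 13056 and 8209, against 2334 to 3075 in vehicle 4 h. Glul had 12883 and 11164 at 1386870_at and 19213 and 10685 at 1367632_at. Its probe set 1367633_at was not marked, with 4478 and 3191 against 3189 to 3802 in vehicle 4 h. Fkbp5 1380611_at had 788 and 774, against 161 to 355 in vehicle 4 h. Tmprss2 1373329_at had 697 and 622, against 65.0 to 179 in vehicle 4 h. The brighter Tmprss2 probe set, 1387833_at, was not marked, with 92.7 and 226 against 68.5 to 448 in vehicle 4 h. Sgk1 and Cited2 lay lower in these arrays than in any kept array, with 1903 and 2669 for Sgk1 and 1997 and 2941 for Cited2 1367602_at. In the groups of 4 kept arrays, 30 checks for a single array far from the rest found 0.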

How the results depend on the processing

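Of 938 single-gene values under 24 alternatives, 877 kept their direction and their side of the threshold, 30 lost a call, 7 gained one and 24 changed sign. These values cover NARA against vehicle at both times and the difference of the effects. The change between 48 h and 4 h in NARA is included for Fkbp5 and Cited2 only, and that in vehicle not at all. Most of the values were not called in the main fit, so the 877 do not measure how stable the calls are. At 48 h both Fkbp5 probe sets and Glul 1386870_at passed under every alternative in which they were tested. With vehicle 48 h replicate 1 put back, the calls at 48 h were 9 of 12. With all 16 arrays they were 3 of 12, and between NARA groups 0. The early count of 0 was 1 when the minimum was 1000, and 3 when eBayes used a trended, robust prior. Between 48 h and 4 h in NARA, the count of 1 became 0 with only the groups compared, no minimum and quantile normalization. It was also 0 with median scaling, with the replicate block, and when any 1 array outside NARA 4 h was left out. It became 2 when the minimum was 1000 and 2 under the trended prior. Deviations of same-numbered arrays from their group means correlated at -0.04 to 0.04, and those of differently numbered arrays at -0.05 to 0.05. This cannot decide whether the numbers pair the arrays. The 2 NARA 4 h arrays deviate from their mean in exactly opposite ways, and arrays of 4 h and 48 h were not compared. With the replicate number as a block, the 48 h count was 7 of 12, the calls of Glul 1367633_at (adjusted p = 0.0729) and Cited2 1367601_at (0.0655) being lost, and the block changed no other call at 48 h or 4 h. When the 48 h groups were fitted alone, Glul 1367633_at (adjusted p = 0.102), Cited2 1367602_at (0.0569) and Cited2 1367601_at (0.103) were lost.

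Changes of sign were the following. With all 16 arrays the 4 h values were -0.95 for Sgk1, 1.12 and 0.31 for Klf9, the differences of effects -0.31 for Tsc22d3, -0.0395 and -0.64 for Glul, -1.13 and -0.21 for Klf9, 0.0036 for Tmprss2 and 0.64 for Cited2, and the change in NARA 0.43 for Cited2. The difference for Glul 1367632_at was -0.0222 with median scaling, and -0.0891 to 0.0757 over single arrays left out. For Klf9 1370209_at it was -0.0205 with the replicate block and -0.0139 to 0.101 over single arrays left out, and its 48 h value then ranged from -0.0799 to 0.0346. Klf9 1390076_at at 4 h ranged from -0.416 to 0.181. The cause was not tested.

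Over all probe sets, the count of 586 at 48 h was 39 with all 16 arrays, 217 with the 48 h groups alone, 355 with no minimum, 1069 with a minimum of 1000, 1098 with a trended prior, 312 with the block, and 310 to 527 over single arrays left out. The 26 for the difference of effects ranged from 0 (all 16 arrays, block) to 126, and the 164 between NARA groups from 13 to 372. The 0 at 4 h was 1 with all 16 arrays, 2 with a minimum of 1000, 4 with the 4 h groups alone and 9 with a trended prior. Leaving out either kept NARA 4 h array leaves 1 array in that group, so those counts at 4 h are not given. Signals under the minimum limit Per1, Klf9 1387882_at and Tmprss2 1373329_at.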
